A study of Homo sapiens with 10 samples.

Results

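Small nucleolar RNA (snoRNA) host transcripts are the spliced RNAs from whose introns snoRNAs are cut. They were taken from the deposited gene table as the genes named SNHG and a number in GENCODE 44, together with GAS5, ZFAS1, DANCR and EPB41L4A-AS1. This rule gave 32 genes out of 78894 in the table, and each of the 32 is annotated as a long noncoding RNA. The table holds poly(A)-selected RNA of HEK293T, a single human embryonic kidney line that carries the SV40 large T antigen, after 24 h in 1 of 3 media. The media differ in cysteine and are labelled 0X-Cys, which the series text calls cysteine-free (2 libraries), 1X-Cys, the normal medium (4 libraries), and 10X-Cys (4 libraries). The libraries are labelled as biological replicates, and the labels name no genetic change. In bulk RNA of this kind, fewer cells with a transcript and less of it per cell cannot be told apart.

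Most snoRNAs guide the chemical modification of ribosomal RNA: box C/D snoRNAs direct 2′-O-methylation and box H/ACA snoRNAs direct the change of uridine to pseudouridine. In the host genes described here the introns carry the snoRNA, while the spliced exons rarely code for protein. Many of these spliced RNAs begin with a pyrimidine tract, as the messages of ribosomal proteins do, and are bound by ribosomes, which sends them to nonsense-mediated decay (NMD). They are therefore known to build up when translation is blocked, and their level is often read beside translation. Neither translation nor RNA decay was measured in these libraries, so only the levels are described.

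The depth was 34836014 to 61654861 recovered reads on genes per library. Of the 32 transcripts, 30 reached a normalized count of 10 in 3 or more libraries and were tested. SNHG27 did not exceed 8.40 in any library, and SNHG18 was listed at 0 in all 10. The 6 markers of the HEK293 line, such as NEFL and LIN28B, each reached a normalized count of 10, and their sum ran from 19563 to 24880 per library. The 6 hepatocyte markers summed to at most 34.6 per library, with APOB at 0 throughout, and the 6 lymphoid markers summed to at most 23.8, with CD3E at 0. Breast epithelial markers summed to 3026 to 3763 per library, most of it ERBB2, with KRT7 at 0, and fibroblast markers to 682 to 1140, most of it COL1A1. Reads from the mitochondrial genome made up 4.51% to 5.05% of reads in the 1X-Cys libraries and 5.15% to 5.71% in the 0X-Cys libraries. They made up 0.117% to 0.146% in the 10X-Cys libraries.

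RefSeq places at least 1 snoRNA within the span of 27 of the 32 genes, 12 of which hold a single one. Of the named transcripts, GAS5 holds 11, among them SNORD44, SNORD47 and SNORD74 to SNORD81, and SNHG1 holds 9, among them SNORD22 and SNORD25 to SNORD31. SNHG14, the long antisense transcript of the imprinted Prader-Willi region, holds 83 of the 147 in all. Box C/D snoRNAs alone were found in 12 genes, box H/ACA snoRNAs alone in 11 and both in 3. The exons of 29 of the 32 genes share bases with another gene, and in 22 at least 1 partner was a gene other than a small RNA. The strand setting of the counting is not given in the sources used here, so the partner's values are set beside the host's where the shared stretch is long.

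The spelling of the first bases is shown for the transcripts that the results turn on, because a pyrimidine tract at the start is the feature that these RNAs share with ribosomal protein messages. Each line gives 15 bases before the annotated start and 25 from it, 5′ to 3′ on the transcribed strand, in lower case. The capitals mark a tract, defined as a C followed by at least 4 bases that are each C or T and beginning within 5 bases of the start on either side. It was searched on the transcribed strand only.
ZFAS1: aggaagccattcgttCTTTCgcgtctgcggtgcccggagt
SNHG5: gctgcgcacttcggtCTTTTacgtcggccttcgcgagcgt
SNHG32: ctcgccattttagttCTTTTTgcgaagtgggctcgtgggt
SNHG7: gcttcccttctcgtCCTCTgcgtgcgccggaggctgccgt
SNHG4: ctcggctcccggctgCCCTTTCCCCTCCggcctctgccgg
GAS5: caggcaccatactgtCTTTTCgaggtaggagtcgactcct
EPB41L4A-AS1: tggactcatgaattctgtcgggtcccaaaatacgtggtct
SNHG29: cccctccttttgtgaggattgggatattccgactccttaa

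The windows lie on GRCh38 at chr20:49278627-49278666 (plus strand) for ZFAS1, chr6:85678709-85678748 (minus strand) for SNHG5 and chr6:31834901-31834940 (plus strand) for SNHG32. Those of SNHG7 and SNHG4 lie at chr9:136728160-136728199 (minus strand) and chr5:139274086-139274125 (plus strand). The GAS5 window is at chr1:173867965-173868004 (minus strand), and those of EPB41L4A-AS1 and SNHG29 are at chr5:112160511-112160550 and chr17:16438972-16439011, both on the plus strand. They were taken from RefSeq promoters (GRCh38.p14), except that of GAS5, which is at the start of the GENCODE 44 canonical transcript, since RefSeq places the start of GAS5 further upstream, where no tract was found. In the first 6 of these windows the tract falls on or next to the annotated start, and the windows of EPB41L4A-AS1 and SNHG29 hold none within the limits searched. The GENCODE start was used for GAS5 alone. For SNHG29 the GENCODE 44 canonical start, at 16439037, lies outside the window shown and was not searched. A RefSeq promoter was matched for 28 of the 32 genes, and SNHG6, SNHG9, SNHG15 and SNHG25 had no entry. Of the 28, 13 held a tract (46.4%), against 21.1% of all 35116 promoters and 74% of the promoters of 77 ribosomal protein genes (57 of 77). GAS5 is not among the 13, since its RefSeq start was used for this count. A match describes letters only, and the starts used by these cells were not mapped.

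SNHG32 had the highest normalized count of the 32 transcripts in the 1X-Cys libraries, and its values cannot be read on their own. SNHG32 (ENSG00000204387, chr6:31834608-31839766, plus strand) hosts SNORD48 and SNORD52 and lies downstream of HSPA1B, which encodes an inducible HSP70 chaperone. Its normalized count was 14723 and 13792 in the 0X-Cys libraries, 58448, 57199, 34414 and 72645 in the 1X-Cys libraries and 8059, 7585, 8397 and 8201 in the 10X-Cys libraries. The third 1X-Cys replicate is far below the others of its group, and both other media are below all of the 1X-Cys libraries.

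The count of HSPA1B followed the same order: 24511 and 21405 in 0X-Cys, 117785, 116327, 69915 and 148570 in 1X-Cys, and 8519, 7570, 8516 and 8940 in 10X-Cys. The ratio of SNHG32 to HSPA1B was 0.489 to 0.496 in the 1X-Cys libraries, 0.601 and 0.644 in the 0X-Cys libraries and 0.917 to 1.00 in the 10X-Cys libraries. Between the lowest and the highest 1X-Cys library SNHG32 differed by 0.486 of the difference in HSPA1B. A straight line with a slope of 0.459 and an intercept of 3914 left residuals of at most 1606 over the 10 libraries. GENCODE 44 also lists a readthrough gene, ENSG00000285565 (chr6:31828834-31839719), whose exons take 920 bases from HSPA1B and 418 from SNHG32, and the table used here has no row for it. How much of the SNHG32 count comes from transcripts that start at HSPA1B was not tested, and each summed result below is therefore given with and without SNHG32.

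Per kilobase of exon, summed over the isoforms in GENCODE 44, SNHG32 (30914 normalized counts per kilobase in 1X-Cys) and SNHG9 (23956) were far above the rest. They were followed by SNHG1 (1676), GAS5 (1567), SNHG29 (1553), SNHG16 (1405) and SNHG3 (1173). SNHG14, whose isoforms add up to the longest exon length, was lowest of the tested transcripts at 1.49. The order of close neighbours, such as SNHG1, GAS5 and SNHG29, depends on the isoforms that are counted in the length.

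Together the 32 transcripts took 0.238% and 0.241% of the reads on genes in the 0X-Cys libraries, 0.288% to 0.372% in the 1X-Cys libraries and 0.287% to 0.296% in the 10X-Cys libraries. The means were 0.240% ± 0.00240 (SD, n = 2), 0.330% ± 0.0342 (SD, n = 4) and 0.292% ± 0.00348 (SD, n = 4). Without SNHG32 the means were 0.206% ± 0.00442, 0.201% ± 0.00546 and 0.272% ± 0.00264 in the same order. Without SNHG32 the 10X-Cys libraries lay above all of the 1X-Cys libraries, at 1.35 times their share (2-sided exact permutation test, p = 0.029, which 4 against 4 libraries cannot go below). The share in 0X-Cys without SNHG32 was 1.02 times that in 1X-Cys, with overlapping groups (exact permutation test, p = 0.33). With SNHG32 included both ratios fell below 1, at 0.726 and 0.884, so 1 gene decides the direction of the summed share in both media. On the normalized counts, which do not depend on the mitochondrial reads in the total, the sum without SNHG32 in 10X-Cys was 1.25 times that in 1X-Cys. With SNHG32 included this ratio was 0.822. In 0X-Cys the ratio to 1X-Cys was 1.007 without SNHG32 and 0.7145 with it.

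**Figure D1:**
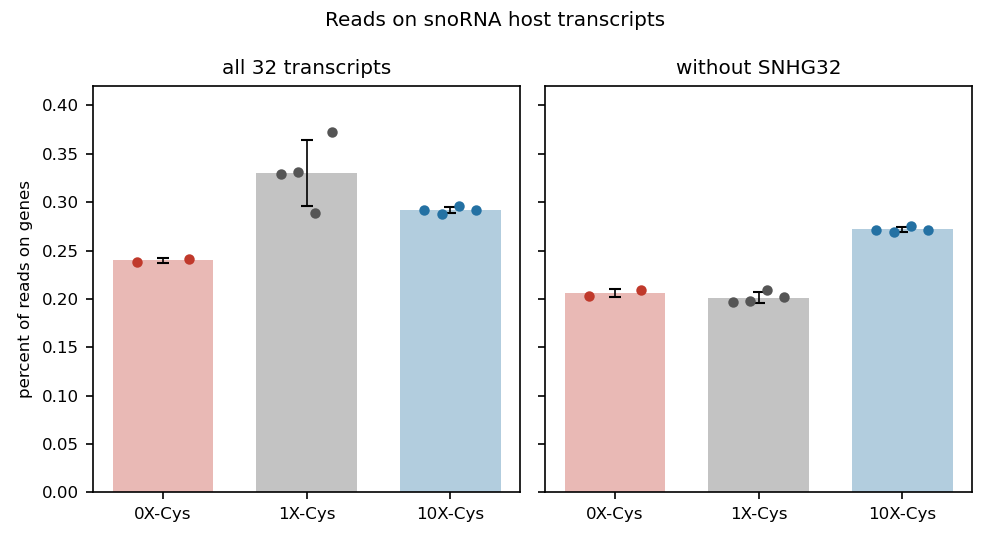
Percent of the reads on genes that fell on the 32 snoRNA host transcripts (left) and on the same set without SNHG32 (right), by medium. Bars are means from a baseline of 0, error bars are SD and points are libraries (2, 4 and 4). On the right the 10X-Cys libraries stand at 0.269% to 0.275%, above 0.197% to 0.209% in 1X-Cys.

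The first comparison asks how the host transcripts differed after 24 h without cysteine. Of the 30 tested, 10 were called in 0X-Cys against 1X-Cys (limma, Benjamini-Hochberg adjusted p of 0.01 or less over 29045 genes), beside 15.9% of all genes tested. GAS5, SNHG11, SNHG29 and SNHG5 were higher (4 of 30, beside 7.39% of all genes), and SNHG3, SNHG4, SNHG7, SNHG26, SNHG32 and DANCR were lower (6 of 30, beside 8.51%). The 0X-Cys and 1X-Cys libraries did not overlap for 16 of the 30 (53.3%), beside 46.9% of all genes tested. The median log2 fold change over the 30 was 0.02, and that over all genes tested was 0.00. The quartiles of the 30 were -0.33 and 0.23, and without SNHG32 the median was 0.04. The sign of this median turned with single libraries, to -0.04 without 0X-Cys replicate 2 and -0.087 without 1X-Cys replicate 4, and it was 0.083 without 1X-Cys replicate 3.

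DANCR, named for holding back differentiation in progenitor cells, hosts SNORA26 (ENSG00000226950, chr4:52712325-52723623, plus strand). DANCR had normalized counts of 1979.5 and 1924 in 0X-Cys and of 2803, 2777, 3055 and 2929 in 1X-Cys, against 2688, 2592, 2648 and 2779 in 10X-Cys. The 0X-Cys libraries were below every other library, and DANCR fell by 0.57 on the log2 scale against 1X-Cys (SE 0.06, limma adjusted p = 3.1e-05). In 10X-Cys its log2 difference from 1X-Cys was -0.11 (adjusted p = 0.050) and was not called.

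SNHG26, a host of SNORD93, had normalized counts of 211 and 186.5 in 0X-Cys, of 323.5, 325, 297.5 and 296 in 1X-Cys and of 271.5, 267, 253.5 and 253 in 10X-Cys. The 3 media did not overlap and 0X-Cys was lowest, at 64.0% of 1X-Cys (log2 difference -0.64, SE 0.12, limma adjusted p = 0.0015). The adjusted p of SNHG26 in this comparison rose to at most 0.041 when either 0X-Cys library was left out, and the call was then lost.

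SNHG5, the host of SNORD50A and SNORD50B, had normalized counts of 5428 and 5985 in 0X-Cys, of 4757, 4325, 4325 and 4458 in 1X-Cys and of 6140.1, 6642, 6452 and 6299 in 10X-Cys. The groups did not overlap, and 0X-Cys was higher than 1X-Cys by 0.35 on the log2 scale (SE 0.06, limma adjusted p = 8.9e-04). SNHG11, the host of SNORA60 and SNORA71E, had 579 and 565 in 0X-Cys, 260.5, 301, 491 and 230.4 in 1X-Cys and 511, 487, 522 and 520.0 in 10X-Cys. The third 1X-Cys replicate of SNHG11 is close to the 0X-Cys and 10X-Cys libraries and the other 3 are lower. SNHG11 was called higher in 0X-Cys by 0.89 (SE 0.22, adjusted p = 0.0079), but DESeq2 on the recovered reads gave an adjusted p of 0.066 and, for 10X-Cys against 1X-Cys, of 0.013, neither called.

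With 2 libraries in 0X-Cys many of these calls rested on single libraries. When each library was left out in turn, the number of called transcripts ran from 3 (without 0X-Cys replicate 2) to 16 (without 1X-Cys replicate 3). The share of all genes called moved with it, from 3.37% to 21.7%, so the range is one of the whole fit and not of the host transcripts in particular. Only DANCR, SNHG4 and SNHG32 of the 10 were called each time, while 5 transcripts were called without 0X-Cys replicate 1 and 6 without 1X-Cys replicate 2. GAS5 lost its call without 0X-Cys replicate 2 or without 1X-Cys replicates 1 or 2 (adjusted p up to 0.24), and SNHG5 lost it without 0X-Cys replicate 2 (up to 0.045). SNHG7 lost it without either 0X-Cys replicate (up to 0.018), SNHG29 without either of these or 1X-Cys replicate 2 (up to 0.077), and SNHG3 (up to 0.11) and SNHG11 (up to 0.095) without any 1 of the 0X-Cys replicates or 1X-Cys replicates 1 and 2. An exact permutation test of 2 against 4 libraries cannot go below p = 0.067 for a single transcript.

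The second comparison sets 10X-Cys against the same 1X-Cys libraries. Of the 30 transcripts 22 were called, beside 46% of all genes tested: 13 were higher (23.1% of all genes) and 9 were lower (22.9% of all genes). The 10X-Cys and 1X-Cys libraries did not overlap for 23 of the 30, SNHG28 included, beside 51.6% of all genes tested. The median log2 fold change over the 30 was 0.15, against 0.01 over all genes, with quartiles of -0.42 and 0.50. Without SNHG32 the median was 0.18, and it was 0.075 without 1X-Cys replicate 4 and 0.083 without 10X-Cys replicate 3. The 13 that rose were ZFAS1, SNHG7, EPB41L4A-AS1, SNHG11, SNHG6, GAS5, SNHG29, SNHG5, SNHG12, SNHG1, SNHG17, SNHG8 and SNHG9, from 2.03-fold down to 1.15-fold. The 9 called lower were SNHG3, SNHG4, SNHG10, SNHG19, SNHG21, SNHG25, SNHG28, SNHG30 and SNHG32. SNHG28 passed the filter only through libraries of the groups where it is high, and without it 8 of 29 were lower. A scaling to equal totals, in which the mitochondrial reads count, shifted the median of all genes in this comparison from 0.01 to 0.12 and gave 14 higher and 8 lower, with 61.8% of the genes called being higher in place of 50.3%.

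**Figure D2:**
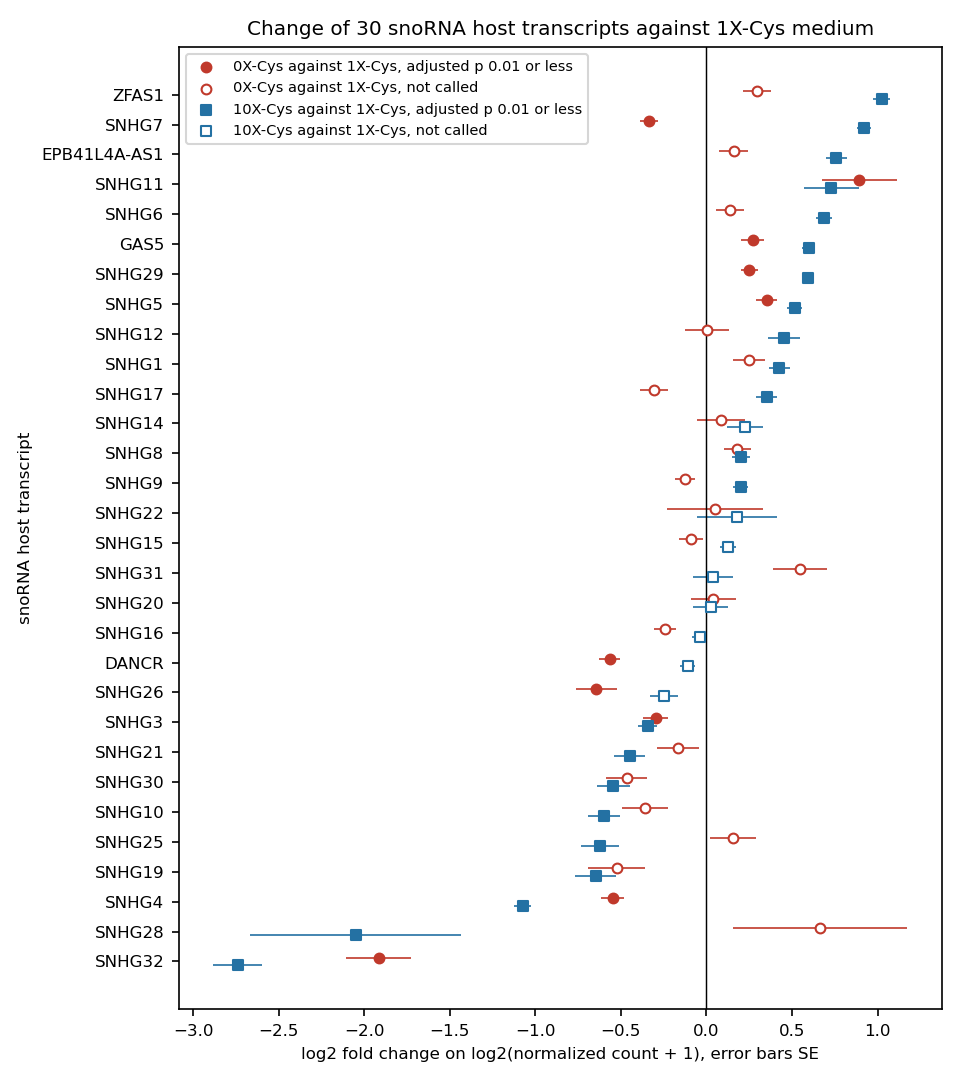
Log2 fold changes of the 30 tested snoRNA host transcripts (rows, in the order of the 10X-Cys change) in 0X-Cys (circles) and 10X-Cys (squares) against 1X-Cys, on log2(normalized count + 1), with SE as error bars. Filled symbols have an adjusted p of 0.01 or less. The changes against the shared 1X-Cys libraries run from -2.74 for SNHG32 to 1.02 for ZFAS1 in 10X-Cys and from -1.92 for SNHG32 to 0.89 for SNHG11 in 0X-Cys, and SNHG7 has filled symbols on both sides of 0.

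ZFAS1, antisense to the start of the zinc finger gene ZNFX1, hosts SNORD12, SNORD12B and SNORD12C (ENSG00000177410, chr20:49278178-49299600, plus strand). Its normalized counts were 2042 and 2406 in 0X-Cys, 1781, 1869, 1923 and 1667 in 1X-Cys and 3724, 3591, 3671.5 and 3727.5 in 10X-Cys. All 10X-Cys libraries were above all others, and ZFAS1 rose 2.03-fold over 1X-Cys (log2 change 1.02, SE 0.05, limma adjusted p = 2.5e-11). In 0X-Cys the 2 libraries were also above the 4 of 1X-Cys, with a log2 difference of 0.29 that was not called (adjusted p = 0.015). ZNFX1, which shares 3.00% of the ZFAS1 exon bases on the other strand, had a mean of 1924.5 in 1X-Cys and 2135 in 10X-Cys.

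GAS5, a transcript that accumulates in growth-arrested cells and binds the glucocorticoid receptor, is at ENSG00000234741 (chr1:173858559-173868882, minus strand). GAS5 had normalized counts of 8463 and 10264 in 0X-Cys, of 7735, 7789, 7859 and 7524 in 1X-Cys and of 11207, 11868, 11947 and 11729 in 10X-Cys. The media did not overlap, and their order was 1X-Cys, 0X-Cys, 10X-Cys. The rise was 1.51-fold in 10X-Cys (log2 change 0.60, SE 0.04, adjusted p = 3.4e-10) and 0.27 on the log2 scale in 0X-Cys (SE 0.07, adjusted p = 0.0081).

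SNHG29, the host of SNORD49A, SNORD49B and SNORD65, had normalized counts of 15982 and 17115 in 0X-Cys, of 14149.5, 13279, 14123 and 14038 in 1X-Cys and of 20227, 20987, 21723 and 21023 in 10X-Cys. These groups also did not overlap and stood in the same order as GAS5, with log2 changes of 0.59 in 10X-Cys (SE 0.04, adjusted p = 3.2e-10) and 0.25 in 0X-Cys (SE 0.05, adjusted p = 0.0021). The 10X-Cys rise of SNHG5 was 0.52 (SE 0.04, adjusted p = 2.1e-08).

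EPB41L4A-AS1, the antisense host of SNORA13 (ENSG00000224032, chr5:112160526-112164818, plus strand), had normalized counts of 1192.5 and 1237 in 0X-Cys, of 1084, 1057, 1005 and 1214 in 1X-Cys and of 1739, 1838, 1903 and 1883 in 10X-Cys. The 0X-Cys libraries overlapped those of 1X-Cys (log2 difference 0.16, adjusted p = 0.18), and all 10X-Cys libraries were above both (log2 change 0.76, SE 0.06, adjusted p = 1.3e-08). EPB41L4A, which shares 51.2% of the EPB41L4A-AS1 exon bases on the other strand, had means of 569 in 1X-Cys and 542 in 10X-Cys.

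SNHG1, the host of 9 snoRNAs including SNORD22, had normalized counts of 7121 and 8727 in 0X-Cys, of 6569, 6525, 7697 and 5861 in 1X-Cys and of 8685, 8931, 9126 and 8891 in 10X-Cys. Its 10X-Cys libraries were above all 1X-Cys libraries (log2 change 0.43, SE 0.06, adjusted p = 1.1e-05), while 1 of the 0X-Cys libraries lay among the 1X-Cys values and the other above them (adjusted p = 0.066). SNHG17, a host of SNORA71 copies, had 1991 and 2052 in 0X-Cys, 2421, 2639, 2756 and 2217 in 1X-Cys and 3151, 3028, 3293 and 3298 in 10X-Cys. SNHG17 thus stood lowest in 0X-Cys, where it was not called (log2 difference -0.31, adjusted p = 0.013), and rose in 10X-Cys (0.35, adjusted p = 9.2e-05).

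SNHG9, the compact host of SNORA78, had 13923 and 13065 in 0X-Cys, 14205, 13869, 14832 and 16026 in 1X-Cys and 16395, 16933, 16526 and 17722 in 10X-Cys. The 10X-Cys libraries of SNHG9 were above all others, and it rose by 0.20 there (SE 0.04, adjusted p = 9.3e-04), which is 1.15-fold. The other risers were SNHG6 (0.69, adjusted p = 2.4e-09), SNHG12 (0.45, adjusted p = 4.7e-04) and SNHG8 (0.20, adjusted p = 0.0039), hosts of SNORD87, of SNORA61 and its neighbours, and of SNORA24. None of these 3 was called in 0X-Cys. MCMDC2 shares 58.9% of the SNHG6 exon bases on the other strand and was higher in 10X-Cys by 0.78 on the log2 scale, from a mean of 227 in 1X-Cys, beside 1391 for SNHG6.

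SNHG7 was called in opposite directions in the 2 media. SNHG7 (ENSG00000233016, chr9:136721366-136728184, minus strand) hosts SNORA17A and SNORA17B. Its normalized counts were 3203 and 3194 in 0X-Cys, 4001, 3939.5, 4078 and 4142 in 1X-Cys and 7611, 7241, 7639 and 8092 in 10X-Cys. No 2 media overlapped. SNHG7 fell by 0.34 in 0X-Cys (SE 0.05, adjusted p = 5.1e-04) and rose by 0.92 in 10X-Cys (SE 0.04, adjusted p = 1.1e-11), and the direct comparison of 0X-Cys with 10X-Cys gave -1.26 (SE 0.04, adjusted p = 1.0e-17). DIPK1B, which shares 30.3% of the SNHG7 exon bases on the other strand, had means of 2658, 3116 and 2342 in 0X-Cys, 1X-Cys and 10X-Cys, an order that is not that of SNHG7.

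**Figure D3:**
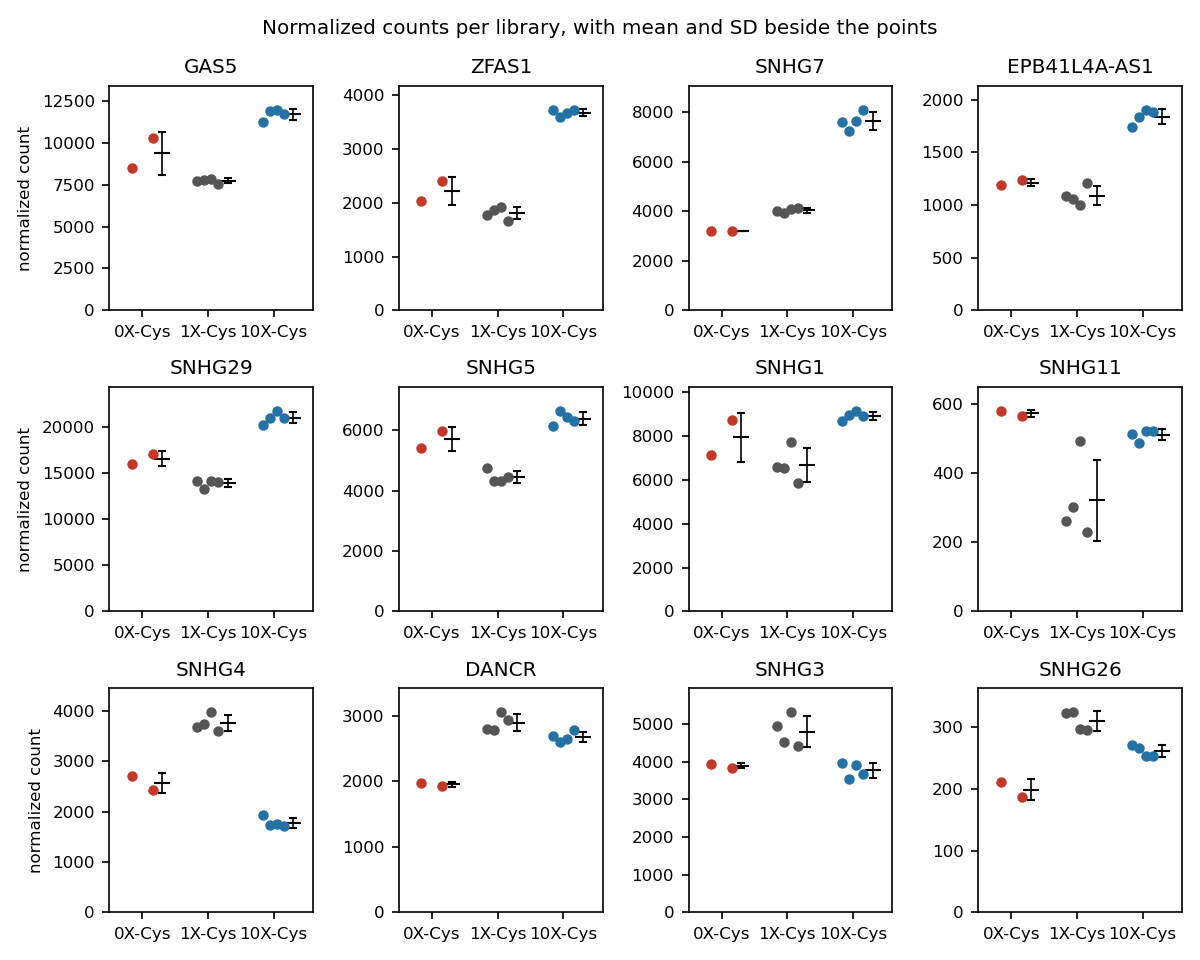
Normalized counts of 12 snoRNA host transcripts in each of the 10 libraries, with the axis of each panel starting at 0 and the mean and SD drawn beside the points. ZFAS1, EPB41L4A-AS1 and SNHG7 stand highest in 10X-Cys, SNHG4 stands lowest there, and DANCR and SNHG26 stand lowest in 0X-Cys.

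SNHG4, the host of SNORA74A, fell in both media (ENSG00000281398, chr5:139274102-139284899, plus strand). Its normalized counts were 2713 and 2425 in 0X-Cys, 3684, 3744, 3982 and 3612 in 1X-Cys and 1933.5, 1735, 1757 and 1709.6 in 10X-Cys. The media did not overlap, with log2 changes of -0.55 in 0X-Cys (SE 0.06, adjusted p = 5.3e-05) and -1.07 in 10X-Cys (SE 0.05, adjusted p = 1.9e-11), which left 47.5% of the 1X-Cys mean. MATR3, which encodes a nuclear matrix protein and shares 14.0% of the SNHG4 exon bases on the same strand, had means of 19786, 21940 and 17567 in 0X-Cys, 1X-Cys and 10X-Cys.

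SNHG3, the host of SNORA73A and SNORA73B, which take part in cutting the ribosomal RNA precursor, had 3946 and 3839 in 0X-Cys, 4946, 4511, 5314 and 4408 in 1X-Cys and 3961, 3534, 3921 and 3667 in 10X-Cys. Both media were below all 1X-Cys libraries, by 0.30 in 0X-Cys (SE 0.07, adjusted p = 0.0076) and by 0.34 in 10X-Cys (SE 0.06, adjusted p = 7.1e-05). RCC1, a neighbour that shares 5.92% of the SNHG3 exon bases on the same strand, had means of 9668.5, 12748 and 10061 in 0X-Cys, 1X-Cys and 10X-Cys, also highest in 1X-Cys. SNHG32 was lower by 1.92 in 0X-Cys (SE 0.19, adjusted p = 1.3e-05) and by 2.74 in 10X-Cys (SE 0.14, adjusted p = 6.6e-11), within the limits given above for its values.

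SNHG25, a short host of SNORD104 and SNORA50C, had 358 and 334 in 0X-Cys, 312, 319, 359 and 258 in 1X-Cys and 224, 197, 211 and 176 in 10X-Cys. Its fall was seen in 10X-Cys (log2 change -0.62, SE 0.11, adjusted p = 1.5e-04), where no library reached the 1X-Cys values, and the 0X-Cys libraries overlapped those of 1X-Cys (0.16, adjusted p = 0.42). SNHG19, the host of SNORD60, had 282.5 and 214 in 0X-Cys, 389, 273, 412 and 359 in 1X-Cys and 256, 212, 208 and 229 in 10X-Cys. SNHG19 fell in 10X-Cys (-0.65, SE 0.12, adjusted p = 1.8e-04), and its 0X-Cys difference of -0.52 was not called (adjusted p = 0.030).

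SNHG10, SNHG30 and SNHG21 fell in 10X-Cys to 66.0%, 68.2% and 72.9% of the 1X-Cys mean, and none of the 3 was called in 0X-Cys. SNHG28 was called lower in 10X-Cys at very low counts, with 2.6, 0, 1.7 and 5.1 in 10X-Cys against 22.1, 9.9, 8.1 and 6.6 in 1X-Cys (limma adjusted p = 0.0094). Another gene covers 90.8% of the SNHG28 exon bases on the same strand. Because only 0X-Cys and 1X-Cys libraries took SNHG28 past the filter, its difference from 10X-Cys was built into the filter and its p-value is not used as support.

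SNHG16, SNHG15 and SNHG31 were called in neither medium against 1X-Cys. SNHG16, the host of SNORD1A to SNORD1C, had 7149 and 6583 in 0X-Cys, 8616, 8519, 7783 and 7543 in 1X-Cys and 7927, 7845.5, 7956 and 7821 in 10X-Cys. SNHG15, the host of SNORA9, had 1970.4 and 2306.5 in 0X-Cys, 2263.5, 2339.7, 2205 and 2263 in 1X-Cys and 2405, 2378, 2611.5 and 2505 in 10X-Cys. SNHG31, which shares no exon base with another gene, had 372 and 302 in 0X-Cys, 215, 248, 275 and 188 in 1X-Cys and 263, 240.1, 223 and 219 in 10X-Cys. SNHG16 and SNHG31 had 0X-Cys libraries outside the 1X-Cys range, below and above it, with adjusted p-values of 0.013 and 0.020 that missed the threshold. SNHG14, SNHG20 and SNHG22 were not called either, with log2 differences of 0.08, 0.04 and 0.05 in 0X-Cys and 0.23, 0.02 and 0.18 in 10X-Cys.

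The 0X-Cys and 10X-Cys values above share the 1X-Cys libraries, so whether the responses differed was tested by setting 0X-Cys against 10X-Cys directly. Of the 30 transcripts 20 were called, beside 48% of all genes tested: 15 were lower in 0X-Cys (24.4% of all genes) and 5 were higher (23.6% of all genes). The 0X-Cys and 10X-Cys libraries did not overlap for 22 of the 30, SNHG28 included, beside 66.0% of all genes tested. The median log2 difference was -0.15, against -1.032e-05 over all genes, and it was -0.096 without 0X-Cys replicate 1. The 15 lower in 0X-Cys included SNHG7, ZFAS1 (-0.73, adjusted p = 1.5e-11), SNHG17 (-0.66, adjusted p = 1.9e-11), EPB41L4A-AS1 (-0.60, adjusted p = 9.7e-10), DANCR (-0.46, adjusted p = 1.2e-08) and GAS5 (-0.33, adjusted p = 5.6e-06). The 5 higher in 0X-Cys were SNHG32 (0.82), SNHG25 (0.78, adjusted p = 2.5e-06), SNHG4 (0.53, adjusted p = 2.4e-08), SNHG31 (0.51, adjusted p = 4.3e-04) and SNHG28, which the filter favoured as said above. Without SNHG28, 4 of 29 were higher and 15 lower. SNHG3 and SNHG11 were not called here, with differences of 0.05 (adjusted p = 0.42) and 0.16 (adjusted p = 0.066). SNHG1 was called at -0.18 (adjusted p = 0.0056), but not with 0X-Cys replicate 1 or any 1 of 10X-Cys replicates 2 to 4 left out (adjusted p up to 0.65). SNHG5, SNHG15 and SNHG31 also lost the call without 0X-Cys replicate 1, SNHG16 and SNHG26 lost it without 0X-Cys replicate 2, SNHG5 without 10X-Cys replicate 2 and SNHG26 without 10X-Cys replicate 1 (adjusted p up to 0.20 among these).

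By the kind of snoRNA they hold, the hosts did not fall into 1 direction. Of 11 tested hosts of box C/D snoRNAs alone, 5 rose and 3 fell in 10X-Cys (median 0.23), and of 11 hosts of box H/ACA snoRNAs alone, 6 rose and 2 fell (median 0.20). In 0X-Cys the box C/D hosts had 2 higher and 2 lower (median 0.08) and the box H/ACA hosts 1 higher and 4 lower (median -0.13). The 12 tested transcripts with a pyrimidine tract at the RefSeq start had 6 higher and 3 lower in 10X-Cys (median 0.12), and the 14 without had 5 and 5 (median 0.10). GAS5 is among the 14 by its RefSeq start, although its GENCODE start holds a tract. Over all genes tested, 23.1% were higher and 22.9% lower in 10X-Cys, and 7.39% and 8.51% in 0X-Cys, and with 11 to 14 transcripts in a class several of these counts lie near those shares. Whether the classes differ was not tested. Among the 8 transcripts whose exons overlap no gene other than small RNAs (SNHG1, SNHG9, SNHG11, SNHG15, SNHG17, SNHG19, SNHG25 and SNHG31, the last of which overlaps none), 1 was called in 0X-Cys (15.9% of all genes), and 4 were higher and 2 lower in 10X-Cys (23.1% and 22.9% of all genes).

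The snoRNA genes inside the hosts have rows of their own in the table, although mature snoRNAs carry no poly(A) tail and the libraries were selected for one. Of 145 such genes 48 passed the filter. In 10X-Cys 15 of these 48 were lower than in 1X-Cys and 2 were higher (median log2 difference -0.46), beside 22.9% lower and 23.1% higher of all genes tested. Each tested entry inside SNHG1 was among the 15. Some entries repeat 1 locus, such as SNORA50C and ENSG00000281311, which had equal means in each medium. SNORD26, SNORD27 and SNORD22, inside SNHG1, were lower by 1.18, 0.89 and 0.87 (SNORD26 adjusted p = 1.2e-06) while SNHG1 itself rose. A second SNORD22 entry inside SNHG1 had a log2 difference of -0.52. In 0X-Cys SNORD49B, inside SNHG29, was the single one of the 48 called (565 against 409, log2 change 0.47, adjusted p = 0.0046), beside 15.9% of all genes. SNORD49B and SNORA44 were the pair called higher in 10X-Cys, and their hosts SNHG29 and SNHG12 rose too.

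Because the host RNAs are known to be decayed when translated, they were set beside genes that report on the control of translation. Targets of the integrated stress response, which lowers initiation through eIF2α and raises ATF4, were higher in both media, 30 of 30 in 0X-Cys (median log2 change 0.99) and 30 of 30 in 10X-Cys (median 1.25). Of all genes tested, 7.39% were higher in 0X-Cys and 23.1% in 10X-Cys. NUPR1, a stress-response cofactor, had means of 91.8 in 1X-Cys, 1020 in 0X-Cys and 1043 in 10X-Cys. The host transcripts had medians of 0.02 and 0.15 in the same comparisons, with calls in both directions. In the direct comparison 8 of the 30 stress targets were higher in 0X-Cys than in 10X-Cys (beside 23.6% of all genes) and 15 were lower (beside 24.4%). TRIB3, a pseudokinase induced by ATF4, was among the 15 lower, with means of 2671 in 0X-Cys and 12608 in 10X-Cys.

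The 31 messages listed as NMD-sensitive, which depend on the decay that also takes the hosts, had 4 higher and 6 lower in 0X-Cys (median 0.04) and 11 higher and 8 lower in 10X-Cys (median 0.00). The shares over all genes were 7.39% higher and 8.51% lower in 0X-Cys, and 23.1% and 22.9% in 10X-Cys. The split of the 31 messages in 0X-Cys turned to 6 higher and 3 lower with equal totals. Among messages with a mean of 100 or more, the largest rises in 10X-Cys were those of UPP1, CDKN1A and GADD45A (log2 changes 2.37, 1.96 and 1.90), and the largest rise in 0X-Cys was that of CARS1, the cytosolic cysteinyl-tRNA synthetase (0.70). The lowest values on the list were those of SRSF2 in 10X-Cys (-0.97) and of ARC in 0X-Cys (-0.66). Of 24 NMD factors, 2 were higher and 4 lower in 0X-Cys, and 6 and 9 in 10X-Cys, a split that equal totals turned to 9 and 6. The lists of messages and factors share genes such as UPF1 and SMG5, whose messages are themselves NMD targets. XRN1, the 5′ to 3′ exonuclease that finishes decay, was higher in both (0.61 and 0.62).

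Messages with a 5′ terminal pyrimidine tract were mostly higher in 10X-Cys. Over all genes tested, 23.1% were higher and 22.9% lower in 10X-Cys, and 7.39% and 8.51% in 0X-Cys. Of 77 cytosolic ribosomal protein genes, 70 were higher and 1 was lower in 10X-Cys (median 0.25), and 7 were higher and 1 lower in 0X-Cys (median 0.05). Of 23 other messages of this class, 15 were higher and 2 lower in 10X-Cys (median 0.22), with EEF2 at 0.88, TPT1 at 0.59 and NPM1 lowest at -0.44. In 0X-Cys 2 of the 23 were higher and 1 was lower (median 0.11). The genes of proteins that package snoRNAs moved mostly the other way. Of 22 genes, 10 were lower and 0 higher in 0X-Cys (median -0.21), and 17 were lower and 4 higher in 10X-Cys (median -0.32). NHP2 and NOP10, of the box H/ACA particle, fell by 0.93 and 0.89 in 10X-Cys. The counts in 0X-Cys depended on the scaling: 15, 17 and 20 ribosomal protein genes and 7, 9 and 9 of the other class were higher with equal totals, equal totals over nuclear genes and quantile normalization. The signs of the medians held under the 4 other scalings tried, and 1 snoRNP gene was called higher in 0X-Cys after quantile normalization.

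Other genes with a snoRNA or small Cajal body RNA annotated within their span, on the same strand, give the setting of the host transcripts among hosts in general. Whether the small RNA lies in an intron was not checked for these genes. Of 252 tested protein-coding hosts, 27 were higher and 41 lower in 0X-Cys (median -0.04), and 83 were higher and 92 lower in 10X-Cys (median -0.03). HSPA8, the constitutive HSP70 chaperone and a host of several box C/D snoRNAs, was among those that fell most, by 1.11 in 0X-Cys and by 1.77 in 10X-Cys. Of 28 other tested noncoding hosts, 6 were higher and 2 lower in 0X-Cys, and 7 were higher and 5 lower in 10X-Cys. In 0X-Cys 27.0% of the protein-coding and 28.6% of the other noncoding hosts were called, beside 15.9% of all genes tested. In 10X-Cys these shares were 69.4% and 42.9%, beside 46% of all genes. Of the 30 host transcripts, 73.3% were called in 10X-Cys (13 higher and 9 lower), and no test of the difference was made.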

How the data were processed

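RNA of 10 HEK293T libraries (2 in 0X-Cys, 4 in 1X-Cys and 4 in 10X-Cys, grouped by title) was poly(A)-selected and sequenced. The authors deposited 1 table of signal values, gene read counts divided by a DESeq2 size factor per library. According to the submitters' processing notes and the methods, STAR 2.7.10b aligned reads to GRCh38. The notes name HTSeq for counting and the methods another counter, and the methods state that reads on several genes were discarded. The overlapping entries SNORA50C and ENSG00000281311 nevertheless had equal means, 47.91, 35.19 and 15.57 in 0X-Cys, 1X-Cys and 10X-Cys. Reads on both of these entries were thus kept in the table, so a host may hold reads of genes that it overlaps. Strand setting and Ensembl release are not given in the sources used here. Whole reads were recovered from the steps of the values, and 34836014 to 61654861 reads on genes per library set the depth. The small number of libraries, more than depth, limits the precision.

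The filter kept genes that reached 10 in 3 or more libraries (29045 of 78894). Log2(value + 1) was fitted with limma 3.58.1 (trend, 2-sided, R 4.3.3), using only the compared groups, with Benjamini-Hochberg adjustment and a threshold of 0.01. Fold changes are on this log2 scale, which understates those of low genes. Single sums were compared by exact permutation tests. No pair of replicates matched within sampling noise. Alternatives covered the pseudocount, filter, scaling, edgeR 4.0.16, DESeq2 1.42.0, a replicate block and single libraries left out. The code was tested on simulated data.

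The transcripts described, the gene lists and the tests were chosen with earlier results of these data known. Named with per-library values were GAS5, ZFAS1, DANCR, EPB41L4A-AS1, SNHG1, the 12 highest per kilobase, and the 4 largest called rises and falls per comparison with a mean of at least 100. SNHG28, SNORA44, HSPA1B, SRSF2, NPM1 and the genes sharing exon bases were named after their values were seen. Other listed genes are the largest called changes. The values of some genes that share exon bases with a host are not reported here. Gene models came from GENCODE 44, and snoRNA positions and promoter sequences from RefSeq.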

Additional observations from a re-analysis of the deposited data

Results flagged for a closer look

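In groups of 4 libraries, a library was picked out when its gap to the nearest other exceeded, as a share of the group's range, Dixon's critical value at the 95% level. Of 60 groups of snoRNA host values examined, 2 held such a library, fewer than the 1 in 20 that chance gives. For SNHG29, 1X-Cys replicate 2 had a normalized count of 13278.6, below the 14038 to 14149.5 of the other three. For SNHG30, 1X-Cys replicate 3 had 600.0, above 459 to 471 in the others. The same 1X-Cys replicate 3 was the highest of its group in 17 of 30 host transcripts and 1X-Cys replicate 4 was the lowest in 16.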

How the results depend on the processing

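For 0X-Cys against 1X-Cys, 10 of 30 transcripts were called. The number was 2 with no filter, 16 with a replicate block, 16 at an adjusted p of 0.05, 1 when at least a 2-fold change was asked as well, and 3 to 16 with 1 library left out. The share of all genes called moved from 15.9% to 1.29%, 22.5%, 27.5%, 2.1%, and 3.37% to 21.7% in the same order. For 10X-Cys against 1X-Cys it was 22, and 4 with a 2-fold change (all genes 46% and 10.1%). With 1 library left out it was 20 to 22. For 0X-Cys against 10X-Cys it was 20, and 12 with no filter, 2 with a 2-fold change (all genes 48%, 15.5% and 12.4%), and 15 to 19 with 1 library left out. Leaving out every transcript with shared exon bases left SNHG31 alone, and the counts were 0, 0 and 1, with log2 differences of 0.547, 0.039 and 0.508. Among the 8 that overlap no gene other than small RNAs, SNHG31 included, a choice made after seeing the data, they were 1, 6 and 6, and the median of 0X-Cys against 10X-Cys was -0.027.

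The median of 0X-Cys against 1X-Cys (0.022) was -0.043 with a filter of 50 in 3 libraries and -0.087 to 0.083 with 1 library left out. The median of 10X-Cys against 1X-Cys (0.151) was 0.255 with equal totals and 0.075 to 0.163 with 1 library left out. The median of 0X-Cys against 10X-Cys (-0.153) was -0.234 with equal totals, -0.111 with the replicate block and -0.178 to -0.096 with 1 library left out. Without SNHG32, a choice made after seeing the data, the ratio of read shares turned from 0.726 to 1.02 for 0X-Cys against 1X-Cys and from 0.884 to 1.35 for 10X-Cys against 1X-Cys, and moved from 0.822 to 0.759 for 0X-Cys against 10X-Cys. Leaving out SNHG28, also chosen after seeing the data, gave 10, 21 and 19 called of 29. The causes were not tested, apart from settings that test fewer transcripts or libraries.

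The replicate numbers did not pair the libraries: deviations of libraries with the same number correlated between -0.116 and 0.103 across genes. Leaving out a 0X-Cys library leaves 1, which is then taken to vary like the other group. Among the 20 transcripts named by rule with library values, which do not include SNHG28, no called transcript changed direction under any alternative. In 10X-Cys against 1X-Cys no called transcript of these 20 lost its call with a library left out.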
